A study of Mus musculus with 4 samples.

Results

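Prl5a1, Prl8a1, Prl8a9 and 7 related genes of the mouse prolactin family (Prl6a1, Prl7b1, Prl7c1, Prl7d1, Prl8a2, Prl8a6, Prl8a8) were followed in blastocyst outgrowths labelled wild-type or Tip110-/-. The set was selected on the measured difference between the Tip110-/- and wild-type arrays of these same data, in which the first 3 genes were among the most strongly raised, and related members of the family complete it. Of the 10 genes named, 9 had an array row annotated with 1 gene symbol, of 30142 genes with such a row. Prl6a1 was read only by a row shared with the predicted gene Gm11357 and its values are given separately. Because that same difference chose the set, the members' own differences are described and not tested.

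Outgrowths are the spread of cells that a blastocyst forms when it is kept in a culture well, here from blastocysts flushed at 3.5 days post coitum from matings between Tip110+/- parents and kept one by one for 4 to 6 days in a serum-replacement medium made for stem cells. Tip110, whose official mouse symbol is Sart3, encodes a nuclear RNA-binding protein that helps recycle the spliceosome. Total RNA of wild-type and of Tip110-/- outgrowths was hybridised to Affymetrix mouse whole-transcript arrays, 2 arrays per genotype. Replicate 1 of either genotype combined 3 outgrowths and replicate 2 held 1, so that the replicate number and pooling coincided. The labels call the samples biological replicates and give 746 and 178 pg of RNA collected for the wild-type pool and single outgrowth, against 165 and 144 pg for the Tip110-/- pool and single outgrowth. The labels give 144 pg of RNA used per array, whereas the series' design text gives 100 pg. Neither the strain nor the nature of the Tip110 allele was stated there. Culture time was the same range of 4 to 6 days for all 4 arrays, without the day of each. The part of culture day in the members' signals was not tested.

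The rodent prolactin family is a large set of hormone-like secreted proteins that arose by repeated gene duplication. A few members, the placental lactogens, bind the prolactin receptor, whereas most of the genes described here encode non-classical members that are not known to signal through it. In the mouse placenta, trophoblast giant cells make the lactogens and proliferins, and the spongiotrophoblast beneath them makes many of the non-classical proteins from midgestation on.

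The promoters of the 3 strongly raised genes and of 2 near relatives are shown because they all carry the letters ACATTCC. Prl6a1, which carries them too, is not shown. Each line gives the 150 bases before the RefSeq transcript start on GRCm38.p6, 5′ to 3′ along the gene, and capitals mark the letters ACATTCC and TATATA. The Prl5a1 stretch lies at chr13:28142334-28142483 on the plus strand, that of Prl8a1 at chr13:27582172-27582321 on the minus strand, that of Prl8a9 at chr13:27564607-27564756 on the minus strand, that of Prl8a8 at chr13:27513218-27513367 on the minus strand and that of Prl8a6 at chr13:27438689-27438838 on the minus strand.
Prl5a1: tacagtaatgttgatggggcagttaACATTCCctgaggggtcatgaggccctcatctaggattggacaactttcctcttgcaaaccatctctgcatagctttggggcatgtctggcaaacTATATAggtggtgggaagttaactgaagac
Prl8a1: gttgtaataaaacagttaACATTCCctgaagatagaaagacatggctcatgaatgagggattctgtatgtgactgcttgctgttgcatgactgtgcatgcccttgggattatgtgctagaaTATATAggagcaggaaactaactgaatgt
Prl8a9: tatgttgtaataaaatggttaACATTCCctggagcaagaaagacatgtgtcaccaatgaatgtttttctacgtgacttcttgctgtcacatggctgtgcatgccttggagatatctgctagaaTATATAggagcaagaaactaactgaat
Prl8a8: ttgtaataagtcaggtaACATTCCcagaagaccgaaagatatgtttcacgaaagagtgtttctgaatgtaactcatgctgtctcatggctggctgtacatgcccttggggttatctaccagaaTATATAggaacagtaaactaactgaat
Prl8a6: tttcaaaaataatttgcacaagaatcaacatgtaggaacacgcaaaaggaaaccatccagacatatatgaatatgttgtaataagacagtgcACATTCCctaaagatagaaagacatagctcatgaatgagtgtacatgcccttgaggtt

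A RefSeq promoter window was at hand for 8 of the 10 members, and the 250 bases before the start were searched on both strands. ACATTCC, the core letters to which TEAD transcription factors bind, was present in 6 of the 8 windows, in 0 of 14 windows of other Prl genes and in 3.24% of all 27025 windows. It began at position -125 in Prl5a1, -129 in Prl8a9, -132 in Prl8a1, -133 in Prl8a8, -142 in Prl6a1 and -58 in Prl8a6, counted back from the start, and was in the same orientation in each. Of the 6 genes that held it, 3 had array signals below background: Prl8a8, Prl8a6 and Prl6a1, the last on its shared row. The windows of Prl7c1 and Prl7d1, both above background, did not hold these letters. The motif was picked after these sequences had been looked at, and a match describes letters and shows no binding.

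The shared stretch was longer than the motif. The run gttaACATTCCctg was identical in Prl5a1, Prl8a1 and Prl8a9, and of the 27025 windows it was found in 4, those of Prl5a1, Prl8a1, Prl8a9 and Prl6a1. Prl5a1 and Prl8a1 shared 17 bases there (cagttaACATTCCctga). Over the whole window, this stretch included, Prl5a1 was less like the others, with 55.9% identity to Prl8a1 over 256 aligned columns and 56.0% to Prl8a9 over 252. The Prl8a promoters were close copies of one another: Prl8a1 and Prl8a9 were 83.1% identical over 249 columns, Prl8a8 and Prl8a9 78.9% over 251 and Prl8a6 and Prl8a9 79.3% over 174. The promoter windows of the family descend from common ancestors and are not independent of each other.

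TATATA was in 6 of 8 member windows, in 13 of 14 windows of other Prl genes and in 5.56% of all windows, so it was common across the family. AGATAA, the core of sites for the GATA family, was in 3 of 8 member windows, in 5 of 14 windows of other Prl genes and in 10.3% of all. AGGAAG, an ETS site, was in 5 of 8, in 11 of 14 windows of other Prl genes and in 29.2% of all. TTCNNNGAA, the form bound by STAT factors, was in 3 of 8 (Prl6a1, Prl8a1 and Prl8a8), in 2 of 14 windows of other Prl genes and in 7.18% of all, and in these 3 members it overlapped the end of the TEAD letters. TGANTCA, an AP-1 site, was in 0 of 8 member windows, in 7 of 14 windows of other Prl genes and in 6.87% of all. GCCNNNGGC, an AP-2 site, was in 1 of 8 (Prl7c1), in 0 of 14 windows of other Prl genes and in 13.6% of all. TATAAA was in 1 of 8 (Prl6a1), in 3 of 14 windows of other Prl genes and in 3504 of the 27025 windows.

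Signals are log2 values as the authors deposited them, so a difference of 1 is 2-fold. As a measure of background, the 95th percentile of the 23 antigenomic rows, whose probes match no mouse sequence, was 4.24 and 4.63 on the wild-type pool and single array and 4.69 and 4.71 on the Tip110-/- pool and single array. This threshold was chosen after the values were seen. The median over all genes was between 4.21 and 4.45 on the 4 arrays, and Tip110-/- minus wild-type had a median of 0.15 over all genes. The positive-control rows had a median of 9.80 and 9.66 in wild-type and of 8.69 and 9.51 in Tip110-/-, lowest on the Tip110-/- pool, and the part of this in the members' signals was not tested. Sart3, the targeted gene, read 4.94 and 5.98 in wild-type against 4.28 and 4.54 in Tip110-/-, so both Tip110-/- arrays were the lower and below background. Its difference of -1.05 ± 0.39 (SE) had an adjusted p of 0.386 in limma. No gene passed an adjusted p under 0.05 (0% of 30142; smallest 0.154), but 680 did when the arrays were centred on the positive controls. At an unadjusted p under 0.05, 8.99% of genes were higher and 3.67% lower. With a 2-fold minimum added the balance was the other way, with 460 genes higher and 905 lower, and it moved with the scaling, from 258 and 1157 after centring on the gene median to 2384 and 506 after centring on the positive controls.

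Prl5a1, also called prolactin-like protein L, read 10.94 on the wild-type pool and 10.95 on the wild-type single outgrowth, and 15.61 and 17.56 on the Tip110-/- pool and single outgrowth. The wild-type arrays were nearly identical, well above background, and both Tip110-/- arrays were far above them. The group means were 10.94 ± 0.01 and 16.58 ± 1.38 (SD, n = 2 each), a difference of 5.64 ± 0.97 (SE of the difference) or 49.8-fold. It ranked 6 among the differences of all 30142 genes. The nearest Tip110-/- and wild-type arrays were 4.66 apart.

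Prl8a9 and Prl8a1 are neighbours on chromosome 13 and belong to the PLP-C group of prolactin-like proteins, which is made by spongiotrophoblast and giant cells. Prl8a9 read 4.28 and 4.74 on the wild-type pool and single array and 8.86 and 11.23 on the Tip110-/- ones. The wild-type signals only just cleared background on their own arrays, whereas both Tip110-/- signals stood far above it. The means were 4.51 ± 0.32 and 10.04 ± 1.67 (SD, n = 2 each), and the difference was 5.53 ± 1.21 (SE), or 46.2-fold. With the wild-type signals this close to background, the fold is less certain than that of Prl5a1.

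Prl8a1 read 8.78 and 6.62 in wild-type against 11.86 and 13.75 in Tip110-/-, pool first. The groups did not overlap, but the wild-type arrays were themselves apart and the pool was the higher of them, while in Tip110-/- the single outgrowth was the higher. The means were 7.70 ± 1.53 and 12.80 ± 1.34 (SD, n = 2 each), with a difference of 5.10 ± 1.44 (SE), or 34.3-fold. The differences of Prl5a1, Prl8a9 and Prl8a1 lay within their standard errors of each other.

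Prl7d1 and Prl7c1 were raised less. Prl7d1, proliferin-related protein, is an antiangiogenic hormone that opposes proliferin in the placenta. It read 5.69 and 6.12 in wild-type against 6.66 and 9.46 in Tip110-/-, means 5.90 ± 0.30 and 8.06 ± 1.98 (SD, n = 2 each). The single Tip110-/- outgrowth carried most of the difference of 2.15 ± 1.42 (SE), or 4.44-fold, and without that array the difference was 0.75. Prl7c1, prolactin-like protein O, read 4.88 and 4.99 in wild-type against 7.31 and 6.44 in Tip110-/-, means 4.94 ± 0.08 and 6.87 ± 0.61 (SD, n = 2 each). Its difference was 1.94 ± 0.44 (SE), or 3.83-fold, and here the Tip110-/- pool was the higher array. The differences of Prl7d1 and Prl7c1 lay within their standard errors of each other. Both wild-type signals of Prl7c1 were close to background and below the highest antigenomic row of their arrays (6.12 and 5.80, pool first). The wild-type pool signal of Prl7d1 was below that highest row too. Both folds are therefore less certain than that of Prl5a1.

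**Figure D1:**
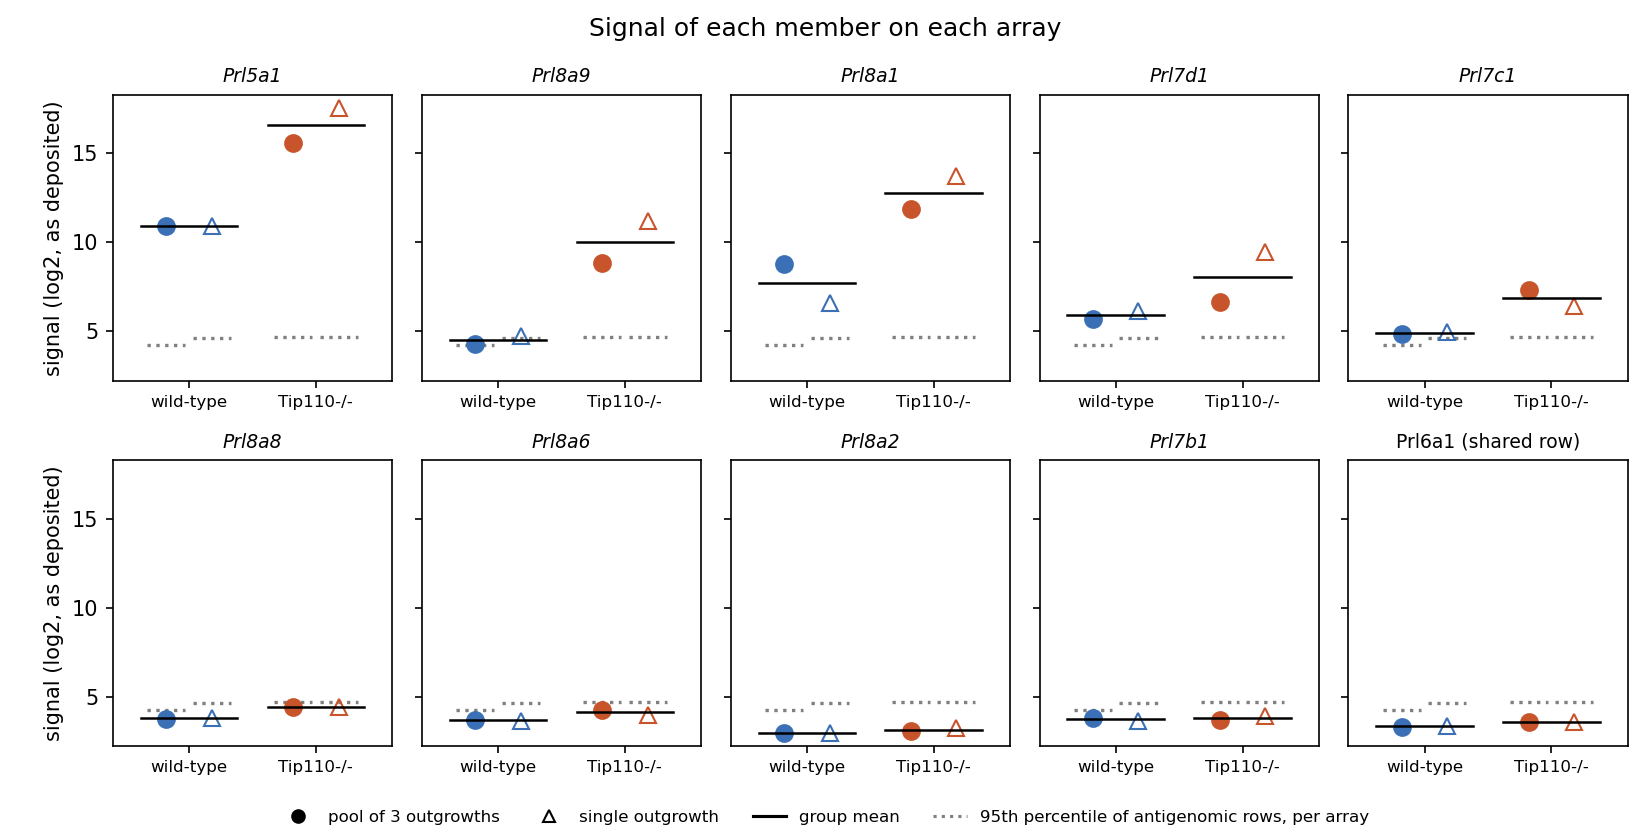
Deposited log2 signal of each of the 10 genes on each of the 4 arrays; filled circles are pools of 3 outgrowths, open triangles single outgrowths, black bars group means and dotted lines the 95th percentile of that array's antigenomic rows. Prl5a1, Prl8a9, Prl8a1, Prl7d1 and Prl7c1 are above the dotted line on all 4 arrays and higher in Tip110-/-, and the other genes stay below it.

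The remaining members were below the background threshold on all 4 arrays, so their small differences are readings near the floor of the array. Prl8a8, a further PLP-C gene, read 3.76 and 3.82 in wild-type and, slightly higher, 4.40 and 4.42 in Tip110-/-, a difference of 0.62 ± 0.03 (SE). Prl8a6, also of the PLP-C group, read 3.71 and 3.66 against 4.26 and 3.99, a difference of 0.44 ± 0.13 (SE). In both genes the groups did not overlap. Each is a close relative of Prl8a1 and Prl8a9, and related genes may share probes.

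Prl8a2, decidual prolactin-related protein, is made by the maternal decidua. It read 2.98 and 2.96 in wild-type against 3.05 and 3.22 in Tip110-/-, a difference of 0.17 ± 0.09 (SE), and a second row for it differed by 0.08. Prl7b1, prolactin-like protein N, is known from invading trophoblast. It read 3.78 and 3.65 against 3.70 and 3.92, and its groups overlapped, with a difference of 0.09 ± 0.13 (SE) that turned to -0.10 under quantile normalization and cyclic loess and to -0.07 after centring on the gene median. Prl6a1, prolactin-like protein B, read 3.31 and 3.37 against 3.57 and 3.56 on the row it shares with Gm11357.

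Counted together, 5 of the 9 members with their own row were at least 2-fold higher in Tip110-/- (4.53% of all genes), and in 8 of 9 both Tip110-/- arrays lay above both wild-type arrays (39.9% of all genes). Since the difference chose the set, nothing is read from these counts. The median member difference was 1.94, beside 0.15 for all genes, and it was 0.75 without the Tip110-/- single outgrowth, when 4 members were at least 2-fold higher. Taken relative to the median of all genes, the differences were 5.49 for Prl5a1, 5.38 for Prl8a9, 4.95 for Prl8a1, 2.00 for Prl7d1 and 1.79 for Prl7c1. In bulk RNA a larger share of cells that make these hormones and more RNA per such cell cannot be told apart.

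The difference was also taken separately between the pools and between the single outgrowths. Between the pools it was 4.67 for Prl5a1, 4.58 for Prl8a9, 3.07 for Prl8a1, 0.97 for Prl7d1 and 2.42 for Prl7c1. Between the single outgrowths it was 6.60 for Prl5a1, 6.49 for Prl8a9, 7.12 for Prl8a1, 3.34 for Prl7d1 and 1.45 for Prl7c1. The gap between genotypes was thus wider between the single outgrowths for 4 of these genes and narrower for Prl7c1. The RNA collected came to 249 and 178 pg per outgrowth for the wild-type pool and single outgrowth and to 55.0 and 144 pg for the Tip110-/- ones. The part of RNA yield in the members' signals was not tested.

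**Figure D2:**
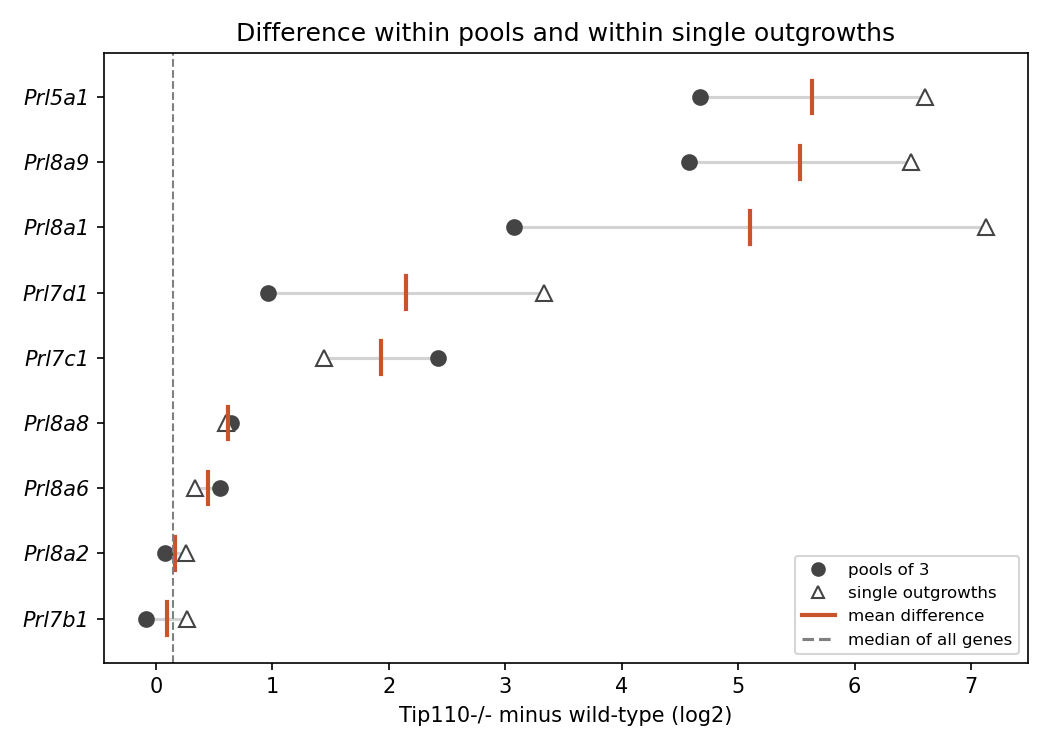
Difference between Tip110-/- and wild-type (log2) for the 9 members with a row of their own, between the pools of 3 outgrowths (circles) and between the single outgrowths (triangles), with the mean of both (red bar) and the median of all genes (dashed line, 0.15). Prl8a1 runs from 3.07 to 7.12 and Prl5a1 from 4.67 to 6.60.

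The pooled and the single outgrowths of a genotype were compared as a contrast that the choice of members had not used. Pool minus single outgrowth, averaged over the genotypes, had a median of -0.05 over the 9 members and 0.03 over all genes, and 5.09% of all genes differed by 2-fold or more. It was -1.62 for Prl7d1, -1.41 for Prl8a9, -0.98 for Prl5a1, 0.14 for Prl8a1 and 0.38 for Prl7c1. For Prl7d1, Prl8a9 and Prl5a1 the single outgrowth was the higher in both genotypes, though by only 0.01 for Prl5a1 in wild-type. The sign was opposite in the genotypes for 4 of the 9 members, against 53.1% of all genes. In Prl8a1 the wild-type pool exceeded the single outgrowth by 2.16, whereas in Tip110-/- the pool was lower (-1.89).

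RefSeq lists 26 Prl genes on chromosome 13. Prl8a6, Prl8a8, Prl8a9, Prl8a1 and Prl7b1 follow each other there in that order. Neighbours differed widely: between Prl8a8 (0.62) and Prl7b1 (0.09), both below background, stood Prl8a9 (5.53) and Prl8a1 (5.10). Prl5a1 is the last of the order. Prl7d1 (2.15) and Prl7c1 (1.94) come just before the last 4 genes, and both exceeded the first of these 4, Prl2a1. Within the last 4 genes alone the differences increased. They were 0.38 ± 0.61 for Prl2a1, 1.10 ± 0.45 for Prl2c1, 3.41 ± 1.67 for Prl4a1 (SE, limma) and 5.64 for Prl5a1. The wild-type arrays of Prl4a1 were far apart, 4.16 on the pool and 9.04 on the single outgrowth. A trend along the order was not tested.

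**Figure D3:**
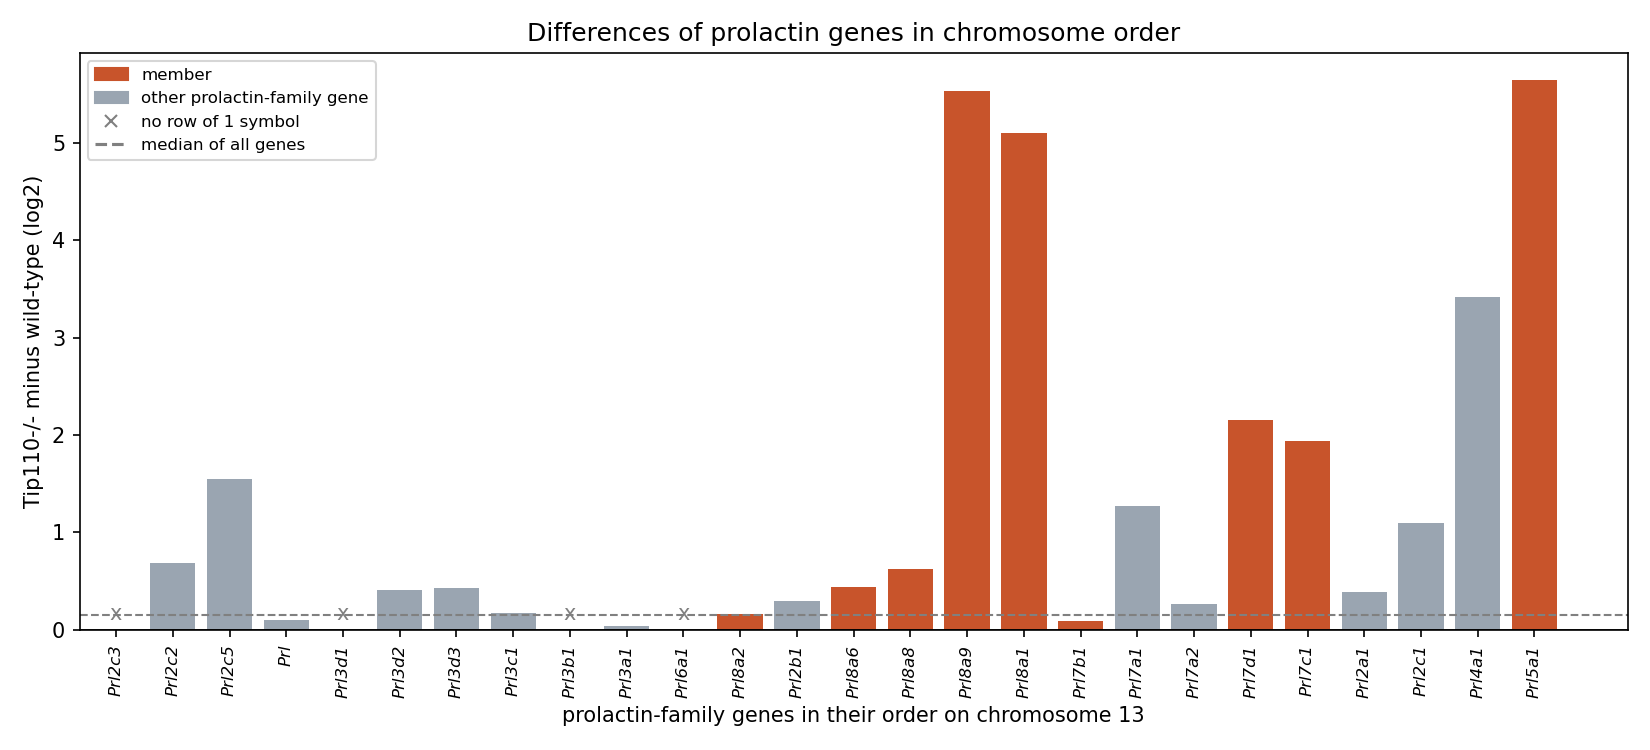
Difference between Tip110-/- and wild-type (log2) of the prolactin-family genes in their order on chromosome 13, members in red and other family genes in grey, with crosses for genes without a row of 1 symbol. The tallest bars, Prl8a9 (5.53), Prl8a1 (5.10) and Prl5a1 (5.64), stand in 2 places of the order, and most other bars are closer to the median of all genes (dashed line, 0.15).

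The rest of the family includes the hormones of trophoblast giant cells. Of 18 other family genes listed, 14 had a row; 4 of them rose at an unadjusted p under 0.05 in limma (beside 8.99% of all genes), 0 fell, and 0 passed after adjustment (smallest adjusted p 0.293). The median difference was 0.42. Without the Tip110-/- single outgrowth 2 of the 14 rose, and centring on the gene median or on the positive controls gave 2 and 9. Prl3d2, a placental lactogen I gene of giant cells that binds the prolactin receptor, was intense in every array, with 18.71 and 18.42 in wild-type against 19.00 and 18.95 in Tip110-/-. It rose by 0.41 ± 0.13 (SE; limma adjusted p 0.358), and its close copy Prl3d3 by 0.43 ± 0.14 (SE; limma adjusted p 0.368). Prl3d3 read 18.69 and 18.37 in wild-type against 19.01 and 18.90 in Tip110-/-, nearly the same as Prl3d2 on each array. These copies may share probes, so their calls among the 4 may not be independent. The signals of both genes were close to the highest of any gene on their array, which was between 19.10 and 19.35, so little range was left above them.

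Prl2c5, a proliferin that promotes vessel growth, read 15.25 and 14.40 in wild-type against 16.00 and 16.74 in Tip110-/- and rose by 1.55 ± 0.42 (SE; limma adjusted p 0.342). Gh, growth hormone, the pituitary relative of the family, read 4.32 and 4.44 in wild-type against 6.35 and 5.85 in Tip110-/-, a rise of 1.72 ± 0.28 (SE; limma adjusted p 0.293). The wild-type Gh signal was close to background. Prl4a1, prolactin-like protein A, did not pass: it read 4.16 and 9.04 in wild-type against 9.28 and 10.73 in Tip110-/-, so that the wild-type pool stood alone at background. Of these 14 genes, 5 were at least 2-fold higher, beside 4.53% of all genes. The signs of Prl, Prl3a1 and Prl3c1, with differences between 0.04 and 0.18, turned under some other normalizations.

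The spongiotrophoblast label was checked against markers of that layer. Tpbpa, its defining marker gene, read 3.83 and 4.04 in wild-type against 4.38 and 4.03 in Tip110-/-, below background on every array. Its copy Tpbpb (4.06 and 4.20 against 4.37 and 4.40) and Pcdh12 (3.71 and 3.58 against 3.76 and 3.79), a glycogen trophoblast cadherin, were below background on every array as well. Ascl2, a transcription factor needed for the layer, read 4.35 and 5.25 against 5.96 and 4.39, above background on 3 of 4 arrays. Flt1, a receptor for vascular growth factors, read 4.71 and 4.24 against 4.55 and 4.90, above background on 2. Of the 5 defining markers 0 passed in either direction, with a median difference of 0.25, and their mean signal was between 4.13 and 4.60 on the 4 arrays. Since 3 of the 5 markers, Tpbpa among them, were not above background on any array, the genes are called here by their symbols and not by the cell layer. Other genes linked to the layer were above background, as given next.

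In the wider list of genes linked to the layer, 18 of 20 had a row, 4 rose and 0 fell at an unadjusted p under 0.05 (limma; smallest adjusted p 0.339), beside 8.99% and 3.67% of all genes, with a median of 0.40. With the wild-type or the Tip110-/- single outgrowth left out, or after centring on the gene median, 2 rose. Egfr, the epidermal growth factor receptor, read 7.82 and 7.74 in wild-type against 9.68 and 11.13 in Tip110-/-, a rise of 2.62 ± 0.67 (SE). Cited2, a transcriptional coregulator needed for placental growth, read 12.88 and 12.09 against 14.12 and 15.30, a rise of 2.23 ± 0.57 (SE). Ets2, a transcription factor of trophoblast, read 8.36 and 7.97 against 9.35 and 11.66, a rise of 2.34 ± 0.89 (SE). These 3 genes are active in many trophoblast cells and do not mark the layer. Aldh1a3, a retinaldehyde dehydrogenase, rose by 0.42 ± 0.13 (SE). Its signals, 3.87 and 3.81 against 4.26 and 4.26, were below background. Phlda2, an imprinted inhibitor of placental growth, read 13.63 and 13.18 against 13.81 and 11.73. Its difference of -0.64 did not pass. Rhox6 (14.55 and 12.32 against 13.70 and 14.25) and Nrk (12.04 and 11.25 against 12.18 and 11.83) were above background on every array. So were Cdkn1c (11.44 and 10.46 against 11.27 and 11.99) and Slco2a1 (9.82 and 8.02 against 8.77 and 8.85), and none of these passed.

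Markers of other cell types were set beside the members. All 5 epiblast markers (Pou5f1, Nanog, Sox2, Klf2, Fgf4) fell at an unadjusted p under 0.05 (beside 3.67% of all genes), with a median of -4.15, while 0 passed after adjustment (limma; smallest adjusted p 0.241). Their mean signal was above 10 on both wild-type arrays and 7.10 and 4.77 on the Tip110-/- pool and single array, lowest on the single outgrowth on which Prl5a1, Prl8a9, Prl8a1 and Prl7d1 were highest. Prl7c1, also above background, went the other way, with 7.31 on the Tip110-/- pool and 6.44 on the single outgrowth. Nanog, a pluripotency factor, read 13.56 and 15.19 in wild-type against 10.10 and 4.15 in Tip110-/-. The part of a smaller epiblast share in the members' signals was not tested.

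Among giant cell markers, 1 of 5 rose at an unadjusted p under 0.05, beside 8.99% of all genes, and with 5 genes such a count is close to that share. It was Cts7, a placental cathepsin, with 10.93 and 4.48 in wild-type against 12.28 and 14.54 in Tip110-/-. Cts8, a related cathepsin, read 11.04 and 4.21 against 10.59 and 11.66 and did not pass. Both cathepsins, like Prl8a1, were far higher in the wild-type pool than in the wild-type single outgrowth. Hand1, a giant cell transcription factor, read 9.75 and 9.97 against 9.07 and 11.16 and did not pass. The 5 markers had a mean signal of 10.63 and 7.93 in wild-type against 10.79 and 12.00 in Tip110-/-. Its part in the members' signals was not tested.

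Of 5 trophoblast stem cell markers, 0 rose and 1 fell, Esrrb, by 0.98 (SE 0.19; limma adjusted p 0.318), to signals below background in Tip110-/-. The other 4 had differences above 0 that did not pass. In bulk RNA the cells in which Esrrb fell cannot be told. Eomes, which maintains trophoblast stem cells, read 11.58 and 11.34 against 11.84 and 12.97 and did not pass. Of 4 syncytiotrophoblast markers 1 rose, Syna, a fusion protein, by 0.36 ± 0.11 (SE) with all signals below background. These single calls stand beside 8.99% of all genes higher and 3.67% lower. In the endoderm list 0 of 4 passed. All 6 decidual markers were below background on every array, and 0 passed. Ptprc, the blood marker with a row, was below background too.

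**Figure D4:**
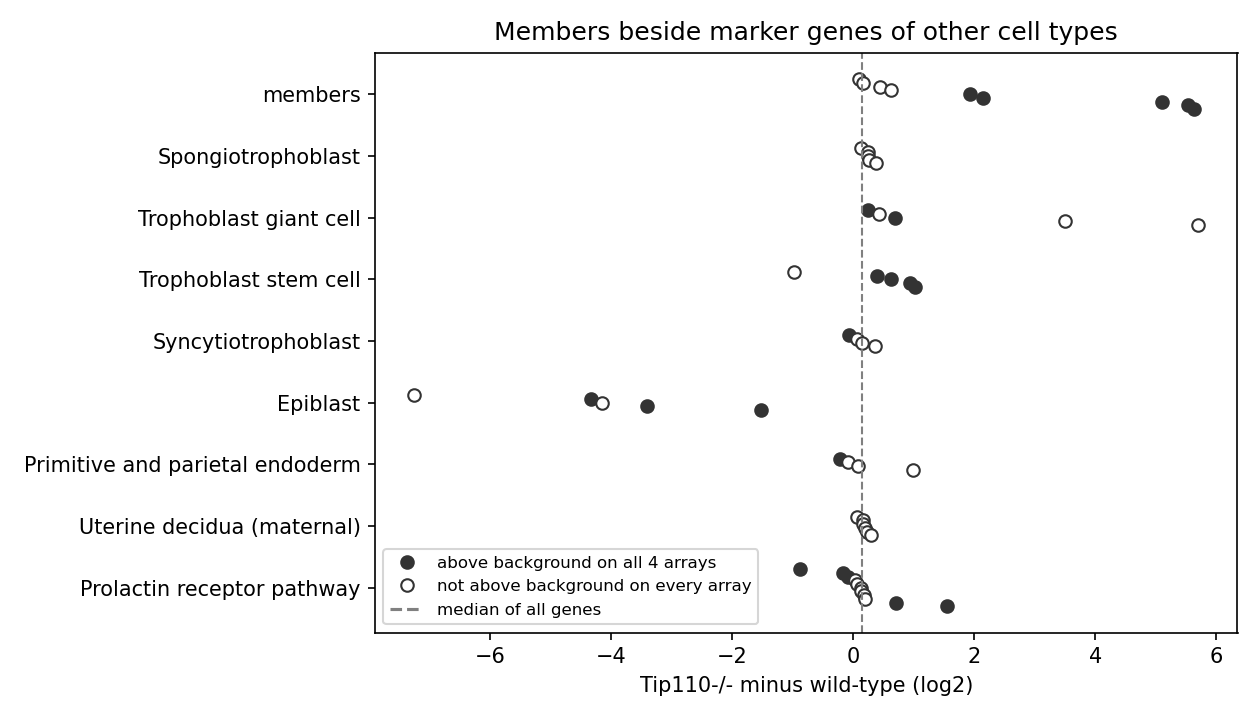
Difference between Tip110-/- and wild-type (log2) for each member and for each gene of the marker lists and the receptor pathway list; filled points were above background on all 4 arrays. The 3 members with differences above 5 were chosen by that difference, so nothing is read from their distance to the other points. The spongiotrophoblast markers are all open points near the median of all genes (dashed line, 0.15), while the epiblast markers lie between -7.25 and -1.53.

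The prolactin receptor signals through JAK2 and STAT5, and Cish and the Socs genes are its targets and inhibitors. The receptor gene itself, Prlr, had no row of 1 symbol. Of 11 measured genes of the pathway 2 rose and 1 fell at an unadjusted p under 0.05 (limma; smallest adjusted p 0.352), beside 8.99% and 3.67% of all genes, and the median was 0.13. Jak2, the receptor's kinase, read 6.61 and 7.23 in wild-type against 8.17 and 8.77 in Tip110-/-, a rise of 1.55 ± 0.50 (SE). Cish, an inhibitor induced by STAT5, read 4.70 and 4.81 against 5.37 and 5.55, a rise of 0.70 ± 0.22 (SE). Socs2, also an inhibitor induced by STAT5, fell by 0.87 (SE 0.26), from 5.94 and 6.11 to 5.23 and 5.09. Stat5a (4.35 and 4.16 against 4.37 and 4.41) and Stat5b (4.47 and 3.99 against 4.39 and 4.46) had signals near background in both genotypes. The wild-type Cish signals were close to background and below the highest antigenomic row of their arrays (6.12 and 5.80, pool first). The inhibitors Cish and Socs2 thus differed in opposite directions before adjustment, and neither passed after it.

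The genes most like Prl5a1, Prl8a1 and Prl8a9 over the 4 arrays were sought by the root-mean-square distance between mean-centred log2 profiles, leaving out the prolactin family and predicted genes. The 5 closest were Zfp954 (0.48), Plau (0.54), Snord35a (0.60), Slc7a11 (0.85) and Snora19 (0.86). Prl5a1, Prl8a9 and Prl8a1 themselves lay 0.23, 0.38 and 0.59 from their common profile. That profile is their own average, so their distances are small by construction and nothing is read from them. Even so, Prl8a1 lay farther from it than Zfp954 and Plau. Plau, the urokinase that invading trophoblast secretes, read 7.78 and 6.00 in wild-type against 12.06 and 13.59 in Tip110-/-. Zfp954, a zinc finger gene, read 6.04 and 5.02 against 8.92 and 11.21. Both shared with Prl8a1 a higher wild-type pool and a higher Tip110-/- single outgrowth. With 4 arrays of 2 genotypes, such likeness describes these arrays only.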

How the data were processed

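Each of 4 arrays (2 wild-type, 2 Tip110-/-) has 1 column of log2 signals in the table the authors deposited. The submitters' processing notes name Affymetrix Expression Console and Transcriptome Analysis Console. How the values were normalized, and the genome build, were not given in the sources used here; log base 2 was taken from their range. The number of arrays limits the precision, and p-values measure only the spread between these samples.

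Rows were named from the platform annotation, with symbols updated through Entrez IDs. Of 72688 rows, 30604 had 1 symbol, 2146 had several and the rest had none, and the row with the highest mean stood for a gene with several rows. Differences were fitted over 30142 genes with limma 3.58.1 (R 4.3.3; lmFit, eBayes with intensity trend, Benjamini-Hochberg adjustment) after the script had been tested on simulated data. No filter or further normalization was applied. Alternatives were quantile, median, positive-control and cyclic loess scaling, a filter on low signals, no trend, averaged rows, a replicate block and each array left out. Replicate 1 minus replicate 2 correlated at -0.09 between the genotypes over all genes, so the numbers were not taken as pairs.

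Members and gene lists were chosen with earlier results of these data known. Named genes were all members, Sart3, up to 4 genes per list with the smallest p, genes needed for small counts, and the 5 genes nearest in profile. Other genes named, such as Prl4a1, Phlda2, Rhox6, Nrk, Cdkn1c, Slco2a1, Nanog, Hand1, Eomes, Cts8, Stat5a and Stat5b, were chosen after their values were seen. Promoter windows came from RefSeq (GRCm38.p6) and were searched with Python 3.11.15 and aligned locally with Biopython 1.88.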

Additional observations from a re-analysis of the deposited data

Results flagged for a closer look

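Prl8a1 differed between pooled and single outgrowths in opposite directions in the genotypes. Pool minus single outgrowth was 2.16 in wild-type and -1.89 in Tip110-/- on the log2 scale. With 1 pool and 1 single outgrowth per genotype, the difference between these values was not tested.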

How the results depend on the processing

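Prl5a1, Prl8a9, Prl8a1, Prl7d1 and Prl7c1 stayed higher in Tip110-/- under every alternative run, with ranges of 4.66 to 6.61, 4.35 to 6.71, 4.02 to 6.18, 0.75 to 3.55 and 1.50 to 2.57. The replicate block, the filter on low signals, averaged rows and the fit without a trend could not change these differences. They are therefore no check on them. Prl7b1 turned to -0.10 under quantile normalization, -0.074 under centring on the gene median and -0.10 under cyclic loess, and to -0.02 without Tip110-/- replicate 2. Centring on the median of the positive controls, which were 0.63 lower in Tip110-/-, moved the median of all genes from 0.15 to 0.78. It gave a member median of 2.57, a pool minus single median of 0.29, 2384 higher and 506 lower genes at 2-fold and an unadjusted p under 0.05 (460 and 905 without it), 680 genes past the adjusted threshold, 9 other prolactin-family genes higher and a spongiotrophoblast median of 1.02. Centring on the gene median left 258 higher and 1157 lower genes, and 2 other prolactin-family and 2 spongiotrophoblast genes higher. The split of higher against lower genes therefore depends on the scaling. Keeping genes above the median row gave a member median of 5.10, and adding the shared row of Prl6a1 gave 1.28; both change which genes are counted.

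With 1 array left out, the lone array of its genotype was assumed to vary like the others. The member median was then 0.75 to 1.99, lowest without Tip110-/- replicate 2, and higher genes numbered 381 to 883, with 883 without Tip110-/- replicate 1 and 732 without Tip110-/- replicate 2. Lower genes numbered 723 to 1159. Other prolactin-family genes higher were 2 to 5, with 2 without Tip110-/- replicate 2. Spongiotrophoblast genes higher were 2 to 4, with 2 without Tip110-/- replicate 2 or wild-type replicate 2, and lower ones 0 to 1. Members at 2-fold or more were 5 as reported, 4 without Tip110-/- replicate 2, 7 after positive-control centring and 5 under every other alternative. The replicate block and the fit without a trend could not change this count. The replicate block gave 503 higher and 939 lower genes and 0 past the adjusted threshold. With 2 arrays a group, the test had few residual degrees of freedom, and signals under the antigenomic threshold give no usable fold.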
